A study of Mus musculus with 39 samples.

Results

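The comparison described here is the effect of the APP/Tau genotype on hippocampal RNA in mice killed 1 h after fear conditioning. It uses the 10 hippocampal libraries whose titles give the trained condition, 4 from APP/Tau mice and 6 from controls, out of 20 hippocampal libraries and 39 libraries in the series. The libraries were chosen by their labels alone, and no measured value was used for that. The gene lists, their members and the comparison were chosen with earlier results of these data known. The APP/Tau genotype combines a pair of human transgenes, mutant APP (APPSw,Ind, line J9) and tau P301S (line PS19), and controls carry neither. All mice in both groups also carry a CaMKIIα-Cre driver and the RiboTag allele, are female and were 9 months old. The libraries are the RiboTag input, that is, poly(A) RNA of the cleared tissue lysate before any pull-down of tagged ribosomes, so all cell types of the tissue contribute. That lysate is a post-mitochondrial supernatant, per the labels' protocols. Training paired a 30 s tone with a foot shock of 0.8 mA and 2 s at its end. The 5 naive APP/Tau and 5 naive control hippocampal libraries were used only in the last comparison, as an independent set of mice.

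Amyloid plaques draw in microglia, the resident macrophages of the brain, which then take on a plaque-associated state under the control of the lipid receptor TREM2 and its adaptor TYROBP. Astrocytes near plaques and dying neurons become reactive, with more of the intermediate filament GFAP. In line J9 the APP transgene is driven by the PDGF-B promoter and in PS19 the tau transgene by the prion protein promoter, both of which are strongly active in neurons. Fear conditioning briefly switches on immediate early genes such as Fos and Arc in hippocampal neurons, and these transcripts are read 1 h later as a trace of recent activity.

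In the trained hippocampus, genes called higher in APP/Tau mice (2.24% of all genes tested) included 20 of 30 of plaque-associated microglia, 17 of 30 of reactive astrocytes, 16 of 30 interferon-stimulated genes and 10 of 20 of complement. They also included 9 of 20 chemokine ligands, 7 of 16 genes of MHC class I and 6 of 9 of class II. Gfap was 6.81-fold and Clec7a, a microglial receptor for fungal glucans, 138-fold higher. Among 30 immediate early genes 3 rose, and none of 28 later effectors of activity was called. None of 31 presynaptic genes was called, and 1 of 36 postsynaptic genes, Grik1 on chromosome 16, fell. As 0.103% of all genes tested were called lower, so few calls do not set these lists apart. Their estimates were negative for 26 of 31 and 33 of 36, against 12270 of 24343 genes tested. A run of neighbouring genes on chromosome 16 was lower, and within it Ltn1 and Cct8 lay at about the same level in all 4 APP/Tau mice. Of 24343 genes tested, 570 (2.34%) passed edgeR's quasi-likelihood test at an adjusted p below 0.05. Among them 545 were higher in APP/Tau and 25 (0.103%) lower. The median log2 fold change was 1.24 for the genes that rose and -0.51 for those that fell, and 122 of the genes that rose did so by at least 2 on the log2 scale. Without any test, 680 genes (2.79%) had all 4 APP/Tau values above all 6 control values, and 247 (1.01%) had all 4 below. Of the 570 called genes, 371 were separated in this way.

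The number of called genes depended strongly on single libraries, and 530 of the 570 had an adjusted p between 0.015 and 0.05. Without APP/Tau mouse 3 the same test called 15 genes, and without APP/Tau mouse 1 it called 53. It called 2291 genes without APP/Tau mouse 2 and 1359 without mouse 4. Leaving out controls 1 to 6 in turn gave 54, 36, 126, 37, 155 and 40 genes. With the same 10 libraries, DESeq2 called 1774 genes and limma-voom 27. The 15 genes (0.0616% of those tested) called in each of the 10 fits with a library left out are the firmest of the set. They are Clec7a, Itgax, Ccl3, Ccl6, Ifi44, Ifit3b, Prnp, Prn and Lamr1-ps1, which rose, and Ltn1, Cct8, N6amt1, Usp16, Rwdd2b and 2810407A14Rik, which fell. For some of the other genes the value of every APP/Tau mouse or the number of these 10 fits that called them is given.

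**Figure D1:**
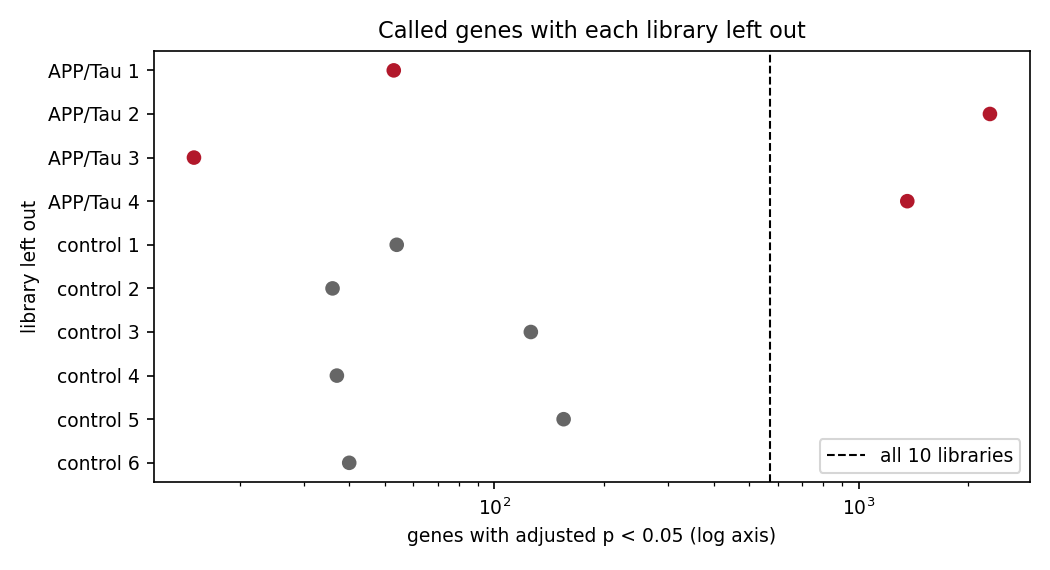
Number of genes with an adjusted p below 0.05 (horizontal log axis) when each of the 10 libraries (vertical axis) is left out; red points are APP/Tau libraries, grey points controls, and the dashed line marks the 570 genes called with all 10. Points left of the line are fits that call fewer genes; only the fits without APP/Tau mouse 2 (2291 genes) and mouse 4 (1359 genes) lie to its right.

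Library totals ranged from 92122767 to 128254479 counts, above the 40000000 reads per sample that the labels' protocols state, and why was not settled here. Levels are in CPM (counts scaled to a common library size with TMM factors). Mitochondrially encoded RNA made up 4.17 ± 0.30% of counts in APP/Tau (SD, n = 4) and 4.67 ± 0.21% in controls (n = 6), a difference that did not pass an exact 2-sided permutation test after adjustment over 3 library features (p = 0.0190, adjusted p = 0.0571; the smallest p this design allows is 0.00952). The 18S ribosomal RNA share was 1.99% in control 1 and 0.286% or less in the other 9 libraries. Defining genes of the hippocampus were present in every library. Prox1, a transcription factor of dentate granule cells, lay between 69.8 and 143 CPM in APP/Tau and between 95.6 and 163 CPM in controls. Fibcd1, a marker of CA1 neurons, lay between 46.8 and 141 CPM and between 129 and 199 CPM, with mouse 1 the lowest for both genes.

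The genes related to the transgenes set the genotype labels apart. The counts do not separate mouse from human transcripts, and how reads of the human transgenes were assigned is not given in the sources used here. App, the amyloid precursor protein gene, measured 2299, 2688, 2288 and 2507 CPM in APP/Tau mice 1 to 4, against 1690 to 2006 CPM in controls (median 1781). The groups did not overlap, and App was 1.35-fold higher (log2 fold change 0.43 ± 0.07 SE, adjusted p = 0.0186, called in 6 of the 10 fits with a library left out). Mapt, the tau gene, measured 675, 634, 604 and 657 CPM against 529 to 603 CPM. Its groups barely separated, with the lowest APP/Tau mouse next to control 6, and its log2 fold change of 0.23 ± 0.06 was not called (adjusted p = 0.0628). Prnp, the prion protein gene, measured 1621, 1843, 1720 and 1991 CPM against 705 to 914 CPM (median 873). All 4 APP/Tau mice lay far above every control, with a log2 fold change of 1.07 ± 0.08 (adjusted p = 1.18e-04). Prn, an entry that shares its locus with Prnp, rose by 1.36 ± 0.09, and reads of both entries may not be separable.

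Of 30 genes of plaque-associated microglia tested, 20 rose, none fell, and 11 had groups that did not overlap. Their median log2 fold change was 2.03, against -0.00 over all genes tested. In bulk tissue, more cells of a type and more RNA per cell cannot be told apart. Clec7a measured 43.0, 1.20, 34.4 and 9.50 CPM in APP/Tau mice 1 to 4, against 0.017 to 0.304 CPM in controls (median 0.164). Every APP/Tau mouse lay above the controls, but mouse 2 was far closer to them than the others. The log2 fold change was 7.10 ± 0.86 (adjusted p = 0.00520). Itgax, which codes for the integrin CD11c, measured 52.2, 1.23, 44.5 and 10.3 CPM against 0.050 to 0.445 CPM, again with mouse 2 lowest (log2 fold change 6.89 ± 0.89, adjusted p = 0.00860). Cst7, a cystatin that inhibits lysosomal proteases, measured 12.2, 0.423, 19.3 and 2.79 CPM against 0.080 to 0.651 CPM. Here mouse 2 lay inside the control range, and the log2 fold change was 5.23 ± 0.88 (adjusted p = 0.0188, called in 5 of the 10 fits with a library left out). Spp1, the secreted glycoprotein osteopontin, spanned 2.10 to 145 CPM in APP/Tau against 1.46 to 3.66 CPM in controls. Ctse, the protease cathepsin E, was high mainly in mouse 1, with 10.8 CPM, while the other 3 had 0.085 to 1.58 CPM.

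Trem2 measured 51.2, 11.9, 52.6 and 24.1 CPM in APP/Tau mice 1 to 4, against 5.58 to 11.4 CPM in controls (median 7.64). Mouse 2 lay just above the highest control, and the log2 fold change was 2.04 ± 0.35 (adjusted p = 0.0192, called in 4 of the 10 fits with a library left out). Its adaptor Tyrobp measured 51.1, 8.82, 43.1 and 22.7 CPM against 5.09 to 6.53 CPM, without overlap (2.48 ± 0.35, adjusted p = 0.0125, called in 9 of the 10). Of 15 genes of TREM2 signalling tested, 11 rose and none fell, with a median log2 fold change of 1.07. They include the kinases Syk (0.99 ± 0.23) and Btk (1.65 ± 0.30), the phospholipase Plcg2 (0.71 ± 0.17), the adaptor Pik3ap1 (1.39 ± 0.23) and the inhibitory phosphatases Ptpn6 (1.85 ± 0.34) and Inpp5d (0.99 ± 0.18). Ptk2b, a kinase with high levels in neurons, went the other way, with all 4 APP/Tau mice (436, 874, 718 and 870 CPM) below all controls (878 to 997 CPM), but was not called (-0.37 ± 0.16, adjusted p = 0.226).

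Apoe, the lipoprotein that microglia and astrocytes secrete, measured 5190, 1592, 3822 and 2131 CPM in APP/Tau against 1474 to 1728 CPM in controls (median 1603). Mice 1, 3 and 4 were above every control and mouse 2 was within their range. The log2 fold change of 0.98 ± 0.25 was not called (adjusted p = 0.0654), although 2 of the 10 fits with a library left out called it. Of the 20 genes of homeostatic microglia tested, 8 rose and none fell, with a median of 0.50. Csf1r, the receptor for the microglial growth factor, rose by 0.98 ± 0.16, and its groups did not overlap. The purinergic receptor gene P2ry12 (0.17 ± 0.10, adjusted p = 0.348) and Tmem119 (-0.19 ± 0.08, adjusted p = 0.249), a pair of classical markers of resting microglia, were not called.

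**Figure D2:**
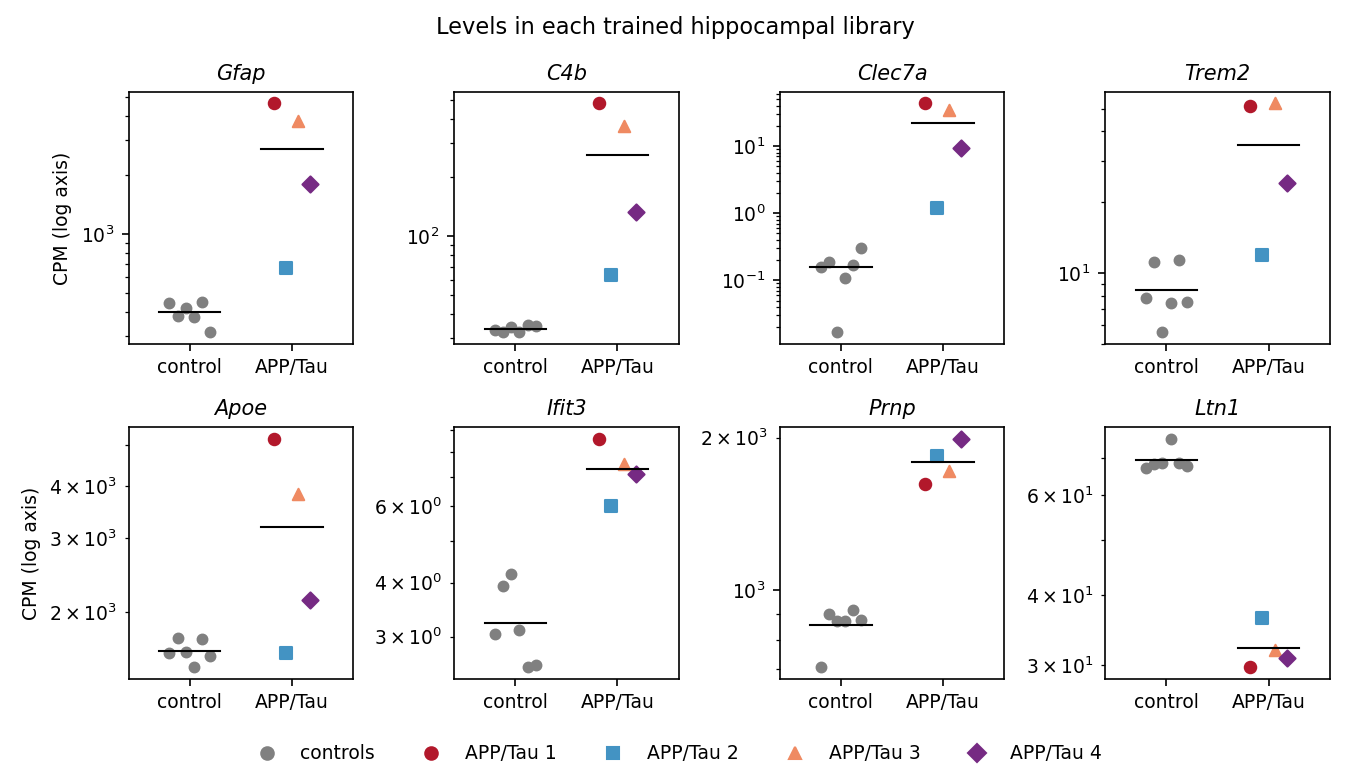
CPM (log axis) of 8 genes in each trained hippocampal library, with controls as grey points, each APP/Tau mouse as its own symbol and the group mean as a line. The glial genes Gfap, C4b, Clec7a, Trem2 and Apoe spread widely over the APP/Tau mice with mouse 2 lowest, whereas Prnp and Ltn1 keep the 4 mice close together and apart from the controls.

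Complement genes rose in 10 of 20 tested, with none lower and a median log2 fold change of 1.03. C4b, which glia make as part of the classical pathway, measured 478, 63.0, 365 and 134 CPM in APP/Tau against 32.3 to 35.1 CPM in controls. The groups did not overlap, and even mouse 2 lay well above the narrow control range (2.95 ± 0.41, adjusted p = 0.0125, called in 9 of the 10 fits with a library left out). C3, the central component, measured 126, 2.69, 49.0 and 3.92 CPM against 0.644 to 1.48 CPM, so that mice 1 and 3 carried most of the difference (5.37 ± 0.90, adjusted p = 0.0188). The C1q genes of the initiating complex rose by 2.20 ± 0.39 (C1qa), 2.00 ± 0.33 (C1qb) and 1.95 ± 0.30 (C1qc). Among phagocyte and pattern receptors, 13 of 24 tested rose and none fell. Tlr2, a receptor for bacterial lipoproteins, rose by 2.99 ± 0.49, its partner Tlr1 by 3.12 ± 0.50 and the inhibitory lectin Cd22 by 4.92 ± 0.81. For all 3 of them mouse 2 overlapped the controls.

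Chemokine ligands rose in 9 of 20 tested, and 8 had groups that did not overlap. The summed share of counts of the list, 0.0692 to 0.0768% in APP/Tau against 0.0627 to 0.0758% in controls, overlapped. Ccl3, a chemokine that attracts monocytes, measured 2.82, 0.300, 3.35 and 1.45 CPM in APP/Tau against 0.050 to 0.112 CPM in controls. It was low in all libraries but separated in every mouse (4.79 ± 0.56, adjusted p = 0.00455). Ccl6 measured 25.0, 2.13, 20.7 and 11.3 CPM against 0.654 to 1.21 CPM (3.96 ± 0.50, adjusted p = 0.00753). Cxcl13, which attracts B cells, was high mainly in mouse 3, with 8.23 CPM, while the other 3 had 0.188 to 1.45 CPM. The ligands Cxcl12, Cxcl14 and Ccl27a, which the resting brain also makes, were not called, with log2 fold changes of 0.00 ± 0.06, 0.09 ± 0.09 and 0.01 ± 0.11.

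Called genes of antigen presentation belonged to both classes of MHC. For class I, 7 of 16 tested rose and none fell, with mouse 2 (0.0782% of counts for the list) within the control range (0.0780 to 0.0848%). Those that rose included B2m, the shared light chain (1.36 ± 0.24), H2-D1 (1.43 ± 0.31) and the immunoproteasome subunits Psmb8 (1.35 ± 0.27) and Psmb9 (1.08 ± 0.24). For class II, 6 of 9 rose. Cd74, the invariant chain, measured 73.5, 4.50, 75.5 and 11 CPM in APP/Tau against 1.34 to 5.0 CPM in controls. Mouse 2 was within the control range (4.00 ± 0.69, adjusted p = 0.0193). Ciita, the master activator of class II genes, was not called (-0.03 ± 0.10, adjusted p = 0.905).

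Of 30 reactive astrocyte genes tested, 17 rose, none fell, and 13 had groups that did not overlap, with a median log2 fold change of 1.42. Gfap measured 4617, 670, 3768 and 1789 CPM in APP/Tau mice 1 to 4 against 314 to 450 CPM in controls (median 400). All 4 mice were above the controls, mouse 2 by the smallest margin (2.77 ± 0.38, adjusted p = 0.0125, called in 9 of the 10 fits with a library left out). Vim, another intermediate filament gene, measured 433, 41.8, 229 and 65.2 CPM against 27.6 to 34.5 CPM (2.63 ± 0.49, adjusted p = 0.0228). Osmr, the receptor for oncostatin M, rose by 2.49 ± 0.36, and Aspg, an asparaginase gene, by 2.37 ± 0.34, both called in 9 of the 10. Lcn2, a secreted iron carrier, rose from 0.020 to 0.143 CPM in controls to 7.34, 0.235, 3.78 and 0.502 CPM. Serpina3n, a protease inhibitor often used as a marker of reactive astrocytes, was not called (1.56 ± 0.54, adjusted p = 0.152), with 367, 39.1, 222 and 98.0 CPM in APP/Tau against 34.4 to 121 CPM in controls. Of 20 homeostatic astrocyte genes, 2 rose. They were the water channel Aqp4 (1.04 ± 0.21) and the chaperone clusterin, Clu (0.85 ± 0.20), while the glutamate transporter Slc1a2 (0.04 ± 0.07) was not called.

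Of 30 interferon-stimulated genes tested, 16 rose, none fell, and 18 had groups that did not overlap, with a median log2 fold change of 0.94. Among those that were not called, Cmpk2 (20.6 CPM against 20.4 to 24.1 CPM) and Ifit2 (11.8 against 9.89 to 12.5 CPM) were within the control range in mouse 2. Ifit2 was also within it in mouse 4 (11.8 CPM). Ifit3b measured 4.49, 3.62, 4.45 and 3.52 CPM in APP/Tau against 2.00 to 2.12 CPM in controls, so that mouse 2 lay with the others (0.96 ± 0.12, adjusted p = 0.00520). Ifi44 measured 2.63, 2.13, 1.90 and 2.28 CPM against 0.504 to 0.897 CPM, with the groups well apart (1.61 ± 0.19, adjusted p = 0.00455). Ifit3 measured 8.60, 6.02, 7.53 and 7.11 CPM against 2.55 to 4.18 CPM (1.18 ± 0.16, adjusted p = 0.0125). Ifit3 and Ifit3b are near-identical copies whose reads the counting could split, so their separate values are uncertain. Among transcription factors of the pathway, Irf9 rose by 0.80 ± 0.14 and Stat2 was not called (0.08 ± 0.08, adjusted p = 0.627).

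Interferon signals reach these genes through the interferon-stimulated response element, a pair of GAAA boxes. The core searched here is GAAA, then any 2 bases, then GAAA again (TTTC boxes on the other strand). On both strands together it was found in the promoters (300 bases around the start, RefSeq, GRCm38.p6) of 13 of the 22 list genes with a promoter in that set, against 3.44% of all 32851 promoters. It was in 10 of the 13 matched genes that rose and in 3 of the 9 that were not called. These counts are of genes and the background is of promoters, and a gene such as Gbp3 can have 2 promoters in that set. Among called genes that hold the match, those with the smallest p are shown, so Ifi44, with a smaller p, is not among them. Each stretch is given with 40 bases on either side and the match in capitals, at its GRCm38 position on the plus strand. The window of Ifit3 (chr19:34583333-34583456) is identical to that of Ifit3b over its 124 bases and is not repeated.
Ifit3b, chr19:34607729-34607852: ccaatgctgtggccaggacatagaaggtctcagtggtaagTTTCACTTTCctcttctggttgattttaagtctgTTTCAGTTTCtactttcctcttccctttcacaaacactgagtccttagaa
Gbp3, chr3:142559959-142560054: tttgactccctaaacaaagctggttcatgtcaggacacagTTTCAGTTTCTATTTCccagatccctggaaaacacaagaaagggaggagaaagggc
Ifit1, chr19:34640745-34640853: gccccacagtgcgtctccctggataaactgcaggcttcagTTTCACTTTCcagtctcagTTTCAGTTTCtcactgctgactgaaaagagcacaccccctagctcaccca
Each holds 2 matches, which overlap in Gbp3, a guanylate-binding protein gene that rose by 1.31 ± 0.17. Ifit1 rose by 1.21 ± 0.17. The shorter motif GAGGAA, searched on both strands, the core that the myeloid factor PU.1 binds, was in the promoters of 10 of 23 matched genes of plaque-associated microglia and in 28.3% of all promoters. It was in 7 of the 16 matched genes that rose and in 3 of the 7 that were not called. The longer form GAGGAAGT was in 1 of the 23. The motifs shown were chosen among 8 after their match counts were seen, and a match describes letters in a window, not binding.

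Lysosomal genes rose in 17 of 35 tested, with none lower and a median log2 fold change of 0.54. Ctsd, the protease cathepsin D, measured 1383, 324, 1224 and 608 CPM in APP/Tau against 269 to 313 CPM in controls, without overlap (1.62 ± 0.30). Cd68, a membrane protein of phagocyte lysosomes, rose by 2.48 ± 0.38 and Man2b1, a mannosidase, by 1.35 ± 0.22. Grn, the progranulin gene, rose by 0.98 ± 0.19 with mouse 2 inside the control range. Tfeb, a transcription factor of lysosomal genes, was not called (0.54 ± 0.19, adjusted p = 0.154). Among genes of lipid transport, 4 of 20 rose. Abca1, which exports cholesterol, rose by 1.32 ± 0.30 and Ch25h, which makes an oxysterol, by 2.01 ± 0.40. None of 21 genes of cholesterol synthesis was called, and 20 of them had negative estimates, with a median of -0.18.

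Mouse counterparts of Alzheimer risk genes rose in 8 of 26 tested, all 8 known from microglia or astrocytes. Beside Trem2, Inpp5d, Plcg2, Grn and Clu, they were Spi1, the gene of PU.1 (1.48 ± 0.27), Ms4a6c (2.47 ± 0.52) and Ms4a6d (2.04 ± 0.45). Bin1 (0.09 ± 0.05) and Picalm (0.13 ± 0.06), which act in endocytosis, were not called. Sorl1, a sorting receptor for APP, was lower in all 4 APP/Tau mice (397, 428, 412 and 402 CPM against 432 to 460 CPM) but was not called (-0.12 ± 0.05, adjusted p = 0.184). Of 21 genes of amyloid processing, App and Bace2 (1.15 ± 0.27, adjusted p = 0.0484) rose. Bace2 was called in 1 of the 10 fits with a library left out, and mouse 2 (2.03 CPM) was among the controls (1.21 to 2.47 CPM), while Bace1 (-0.03 ± 0.05), which makes the first amyloidogenic cut, was not called. None of 21 genes of tau kinases and phosphatases was called.

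The 4 APP/Tau mice differed widely from each other in the genes that rose and in the glial lists. Of the 545 genes that rose, 446 were highest in mouse 1 and 91 in mouse 3, and 472 were lowest in mouse 2. The median log2 difference of these genes from the control mean was 1.75 in mouse 1, 0.32 in mouse 2, 1.51 in mouse 3 and 0.79 in mouse 4. All 545 lay above every control in mice 1 and 3, 533 did in mouse 4 and 357 in mouse 2. The 545 genes were called from these same mice, so these counts are shaped by that selection. For plaque-associated microglia the list median was 2.61, 0.18, 2.43 and 1.03 in mice 1 to 4, and for reactive astrocytes 2.38, 0.24, 1.84 and 0.78. Whether the glial values go with the transgene-related genes was not tested. Mouse 2 had the highest App level of the 4. Its Prnp level was above those of mice 1 and 3, and its Mapt level was below those of mice 1 and 4. Its list median was above all controls for chemokine ligands (0.52, control maximum 0.18), interferon-stimulated genes (0.48 and 0.10), T and NK cell genes (0.56 and 0.40), MHC class II (0.37 and 0.14), complement (0.31 and 0.12), TREM2 signalling (0.28 and 0.12), reactive astrocytes (0.24 and 0.08) and plaque-associated microglia (0.18 and 0.12). It was within the control range for MHC class I (0.07 and 0.10), phagocyte receptors (0.19 and 0.23), border-associated macrophages (0.18 and 0.27) and homeostatic microglia (0.08 and 0.12).

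**Figure D3:**
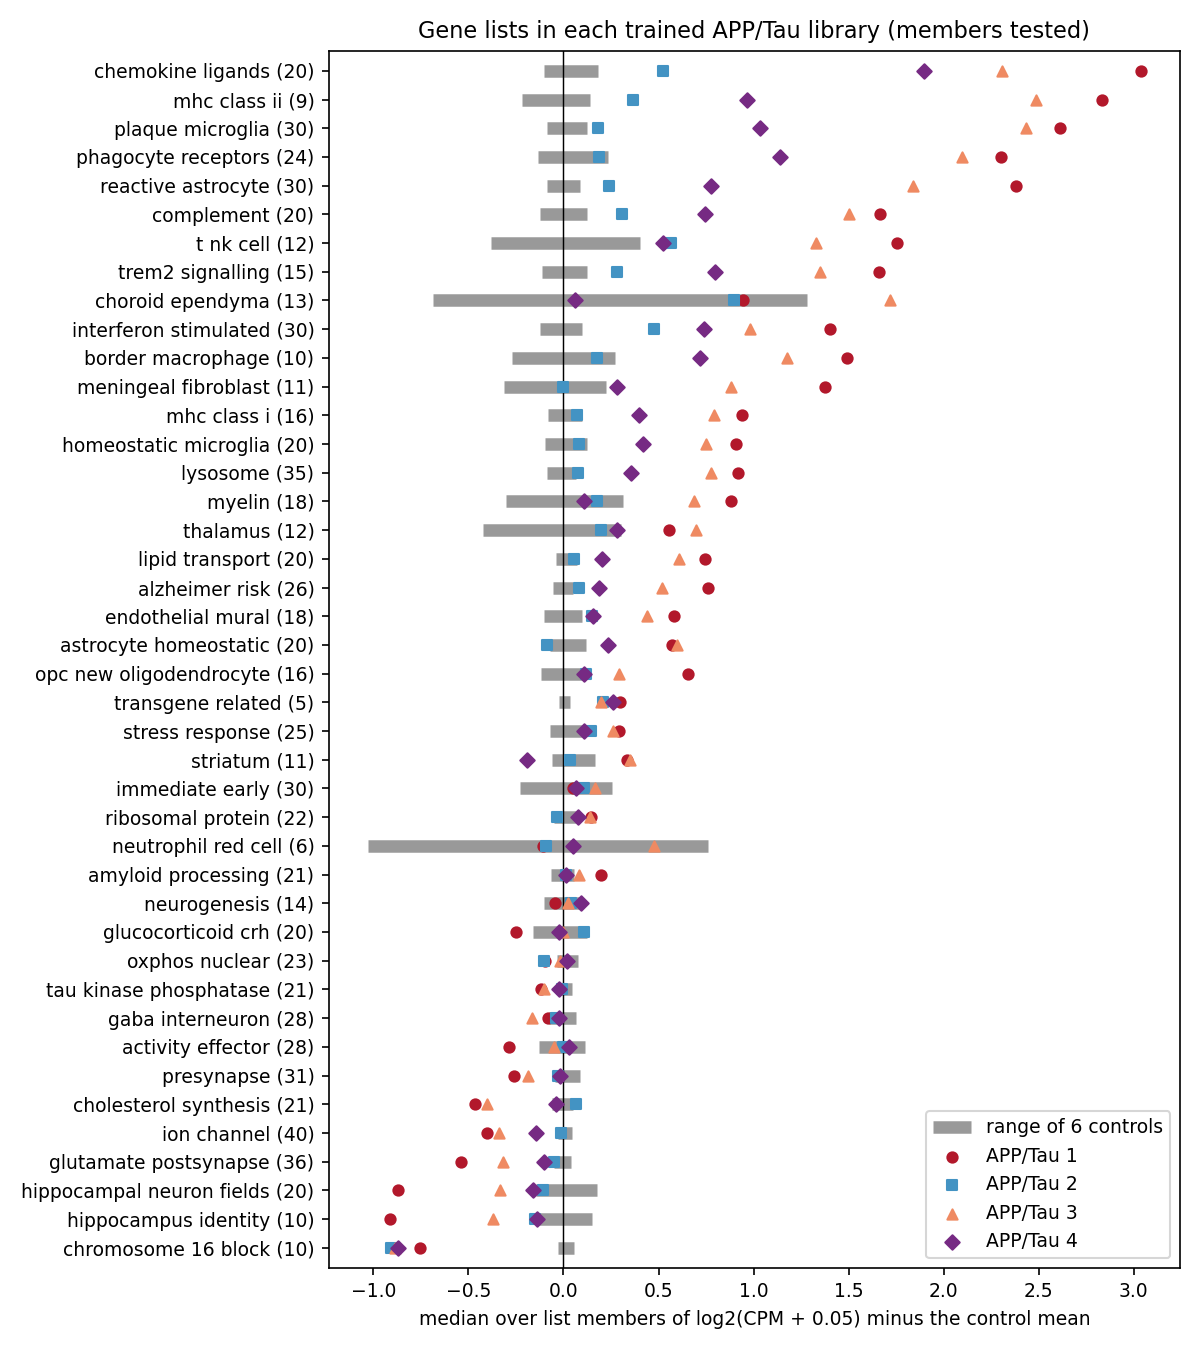
Median over the members of each gene list (number tested in brackets) of the log2 difference from the control mean, computed on CPM with an offset of 0.05, for each APP/Tau library; grey bars give the range of the same median over the 6 controls. For plaque-associated microglia and reactive astrocytes mouse 2 is nearest the controls (0.18 and 0.24), for T and NK cell genes and myelin mouse 4 is, and in the chromosome 16 list at the bottom they sit together between -0.91 and -0.76.

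Few response genes of neuronal activity were called 1 h after training. Of 30 immediate early genes tested, 3 rose (2.24% of all genes did), none fell, and the median log2 fold change was 0.00. The 3 were Maff (1.29 ± 0.23), Atf3 (2.13 ± 0.39) and Zfp36 (1.40 ± 0.28), which cells other than neurons also induce in inflammation. Fos measured 25.1, 19.7, 31.7 and 23.0 CPM in APP/Tau against 13.1 to 27.7 CPM in controls (median 18.2). The groups overlapped, and the approximate 95% interval of the log2 fold change ran from -0.01 to 0.77. Arc, which acts at active synapses, measured 55.8, 126, 118 and 126 CPM against 79.0 to 176 CPM, with mouse 1 below all controls and the others among them (-0.25 ± 0.26, adjusted p = 0.641). Npas4 (-0.16 ± 0.16) and Egr1 (-0.04 ± 0.15) also overlapped. Of 28 later effectors of activity none was called. Bdnf, a neurotrophin, had a log2 fold change of -0.28 ± 0.12 (adjusted p = 0.242), and Scg2, a granin, was lower in all 4 APP/Tau mice (201, 217, 222 and 222 CPM against 236 to 260 CPM; -0.19 ± 0.05, adjusted p = 0.0785).

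Neuronal and synaptic genes leaned lower without being called. Of 36 genes of the glutamatergic postsynapse, 33 had negative estimates, and the median log2 fold change was -0.22. The kainate receptor gene Grik1 alone was called, and it belongs to the lower genes on chromosome 16 described below. Its log2 fold change in naive mice was -0.96. None of 31 presynaptic, 28 GABA and interneuron, 40 ion channel and 20 hippocampal field genes was called (0.103% of all genes tested were called lower). Their medians were -0.13, -0.14, -0.18 and -0.31. Kcna4, a potassium channel gene, was lower in all 4 APP/Tau mice (35.1, 48.7, 41.0 and 51.5 CPM against 55.4 to 95.1 CPM) but missed the threshold (-0.58 ± 0.15, adjusted p = 0.0753). Cacna2d1, a calcium channel subunit gene, likewise separated the groups (150, 244, 189 and 232 CPM against 263 to 273 CPM; -0.39 ± 0.11, adjusted p = 0.0893). Camk2a, a kinase of excitatory neurons, measured 1612, 3377, 2407 and 3340 CPM against 3034 to 4360 CPM, with mice 1 and 3 below all controls and mice 2 and 4 among them (-0.44 ± 0.18, adjusted p = 0.210). For the list of hippocampal field genes the medians of mice 1 to 4 were -0.87, -0.11, -0.34 and -0.16 against -0.15 to 0.17 in controls, so that the lowest values came from the mice with the highest glial values.

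Markers of tissues that border the hippocampus also varied with the libraries, and their part in the results was not tested. The 13 genes of choroid plexus and ependyma made up 0.0346 to 0.148% of counts in APP/Tau and 0.0247 to 0.0939% in controls, and all 13 estimates were positive. Foxj1, a regulator of motile cilia, was called (1.23 ± 0.27), whereas Ttr, the transthyretin of the choroid plexus, was not (0.89 ± 0.45, adjusted p = 0.301). The 11 genes of meningeal fibroblasts made up 0.0418 to 0.119% and 0.0341 to 0.0488%, with Aebp1 called (1.5 ± 0.34). The 12 thalamic genes held 0.0252 to 0.0313% in APP/Tau and 0.0177 to 0.0249% in controls, with Vangl1 called (0.64 ± 0.13). The 10 markers of hippocampal identity held 0.316 to 0.574% against 0.515 to 0.692%, with mouse 1 lowest and mouse 3 (0.445%) next.

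Markers of other cell types also varied between the mice. All 18 myelin genes had positive estimates (median 0.48), none was called, and the list held 1.28, 0.735, 1.08 and 0.696% of counts in mice 1 to 4 against 0.497 to 0.770% in controls. Among T and NK cell genes, 12 of 19 passed the filter on low counts. Ly9, a SLAM family receptor (4.03 ± 0.68), and the chemokine receptor gene Cxcr6 (2.19 ± 0.46) rose, in 3 and 2 of the 10 fits with a library left out. Cxcr6 was itself low, with 0.150 to 0.478 CPM in APP/Tau and 0.034 to 0.123 CPM in controls. The defining genes Cd3e (0 to 0.266 CPM in APP/Tau, 0 to 0.133 CPM in controls), Cd8a and Cd4 stayed below 1 CPM in all 10 libraries and were not called. Of 10 genes of border-associated macrophages F13a1 rose (1.13 ± 0.20). Of 16 genes of oligodendrocyte precursors and newly forming oligodendrocytes only the receptor gene Gpr17 was called (0.36 ± 0.08), and of 18 endothelial and mural genes only Vwf (0.43 ± 0.10), each in 2 of the 10 fits with a library left out. Of 25 stress genes Atf3 and Hmox1 rose, and of 20 genes of the glucocorticoid response 3 rose while 12 had negative estimates (median -0.02). The 3 were Cdkn1a, the cell cycle inhibitor p21 (1.45 ± 0.26), and the metallothioneins Mt1 (0.73 ± 0.15) and Mt2 (1.04 ± 0.19). The log2 fold change of Hmox1, heme oxygenase, was 1.92 ± 0.27. No gene was called among 23 nuclear genes of oxidative phosphorylation and 22 ribosomal protein genes.

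Of the 25 genes that were lower, 8 lie on chromosome 16. The share of all tested genes on that chromosome was not counted here. In chromosomal order they are N6amt1, Ltn1, Rwdd2b, Usp16, Cct8, Bach1, 2810407A14Rik and Grik1. Ltn1, a ubiquitin ligase of ribosome quality control, measured 29.7, 36.4, 32.0 and 30.9 CPM in APP/Tau mice 1 to 4 against 67.2 to 75.6 CPM in controls. The mice lay close together, and none came near the controls (-1.10 ± 0.06, adjusted p = 1.35e-05). Cct8, a subunit of the TRiC chaperonin, measured 81.4, 81.0, 78.9 and 83.5 CPM against 151 to 182 CPM (-0.99 ± 0.06, adjusted p = 1.35e-05). N6amt1, a methyltransferase gene, fell by 0.96 ± 0.08, Usp16, a histone deubiquitinase gene, fell by 0.96 ± 0.09 and Rwdd2b fell by 1.01 ± 0.12. Bach1, a heme-regulated repressor, fell by 0.55 ± 0.12 and Grik1 fell by 0.79 ± 0.12. The mice were less even for Bach1, with 13.2, 8.96, 11.2 and 8.23 CPM against 13.9 to 16.5 CPM in controls. It was called in 3 of the 10 fits with a library left out. Adamts1 (0.00 ± 0.13) and Adamts5 (-0.23 ± 0.21), before N6amt1, were not called, nor was Tiam1 (-0.47 ± 0.13, adjusted p = 0.0852) after Grik1. Between Cct8 and Bach1, B130034C11Rik (-0.77 ± 0.29, adjusted p = 0.179) and Map3k7cl (-0.60 ± 0.46, adjusted p = 0.493) were not called either. The order comes from a GRCm38 gene table and is used for neighbourhood alone, since the counts were made on mm39. The list was drawn up with this pattern known from these libraries.

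**Figure D4:**
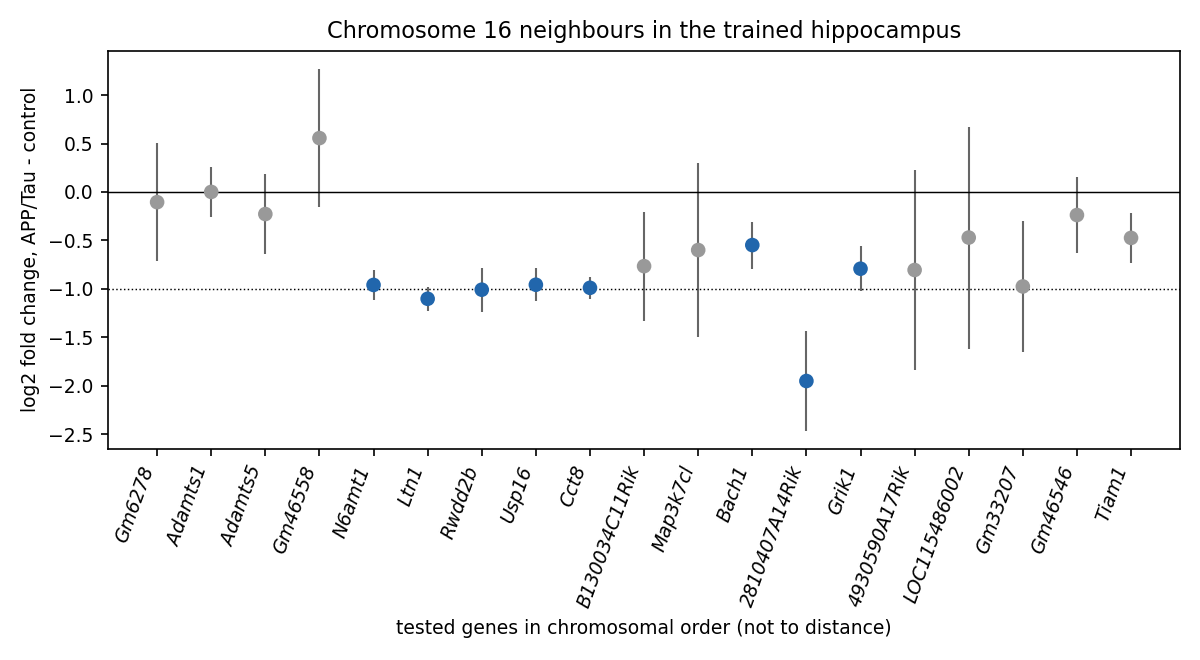
Log2 fold change of APP/Tau against control, with its approximate 95% interval, for tested genes around the lower run on chromosome 16, in chromosomal order but not to distance; blue points are called, grey points are not, and the dotted line marks -1. The 5 genes from N6amt1 to Cct8 lie between -1.10 and -0.96, and Adamts1 before them lies at 0.00.

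Genes on other chromosomes were also called lower. Gm5104, a predicted gene, was close to the limit of detection, with 0 to 0.0188 CPM in APP/Tau against 0.0224 to 0.554 CPM in controls. Twist1, a transcription factor gene, measured 1.09, 0.657, 0.749 and 0.667 CPM against 1.39 to 2.14 CPM (-1.17 ± 0.20, adjusted p = 0.0193). Unc5c, a netrin receptor gene, measured 34.1, 44.2, 41.0 and 54.3 CPM against 56.1 to 66.8 CPM (-0.54 ± 0.11, adjusted p = 0.0313). Psrc1, which acts at the mitotic spindle, fell by 0.51 ± 0.10, and Myorg, a glycosidase gene of astrocytes, fell by 0.49 ± 0.11. In Twist1, Unc5c, Psrc1 and Myorg the groups did not overlap. Twist1 was called in 5 of the 10 fits with a library left out and the other 3 in 2.

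In naive mice, an independent set, the same genes mostly differed in the same direction. In a fit over all 20 hippocampal libraries, 558 of the 570 called genes (97.9%) had the same sign of the genotype effect in naive mice, as had 69.8% of all genes tested in both fits. Of the 570, 30 were called in naive mice, where 52 of 25791 genes (0.202%) passed, and 207 had naive groups that did not overlap in the same direction, against 1179 genes (4.57%) in either direction. The median log2 fold change of the genes that rose was 1.23 in trained and 0.83 in naive mice in this fit. These genes were selected by their calls in the trained mice, which favours larger trained values. The gap between the medians therefore cannot be read as a difference between trained and naive mice. Gfap measured 1595, 1308, 901, 994 and 4882 CPM in naive APP/Tau mice 1 to 5 against 375 to 497 CPM in naive controls. Naive mice thus also differed widely from each other, with mouse 5 highest (log2 fold change 2.22 ± 0.44, adjusted p = 0.0411). Ltn1 (-1.13 ± 0.06) and Prnp (1.17 ± 0.08) showed close to the values of trained mice.

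The difference between the genotype effects of trained and naive mice was tested as an interaction. None of 25791 genes (0.0%) passed edgeR's test (smallest adjusted p = 0.984). An unadjusted p below 0.05 was seen for 1005 of them, which is a smaller share than 0.05. DESeq2 called 3 genes and limma-voom none. Simulated counts with 4 to 6 libraries a group recovered 66% of interactions of 1 on the log2 scale and 32% of those of 0.5 over 25294 genes. The changed genes were drawn at random above a floor on counts. Smaller interactions could thus be missed, and so could larger ones in genes that vary more between mice. Cd74, with log2 fold changes of 3.97 in trained and 1.52 in naive mice, had an adjusted p of 0.984 in edgeR's interaction test. The list medians were higher in trained than in naive mice for plaque-associated microglia (2.01 and 1.22), class II genes (1.96 and 1.03) and chemokines (2.58 and 1.37). That was not particular to immune lists. Choroid plexus and ependyma (0.85 and 0.21), meningeal fibroblasts (0.64 and 0.05), thalamic genes (0.45 and 0.10) and T and NK cell genes (1.12 and 0.07) also had higher trained medians. The medians were close for interferon-stimulated genes (0.93 and 0.88) and the chromosome 16 list (-0.89 and -0.92), and lower in trained mice for striatal genes (0.19 and 0.24). These pairs of medians were not tested against each other.

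**Figure D5:**
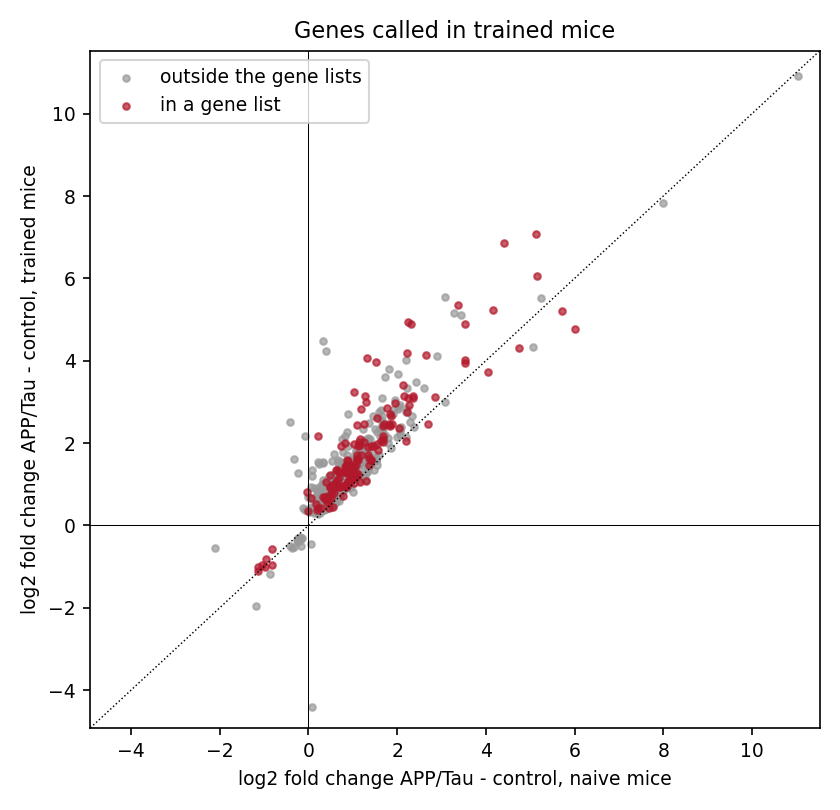
Genotype effect (log2 fold change, APP/Tau against control) of the 570 called genes in naive mice (horizontal) and trained mice (vertical), both from the fit over 20 libraries; red points belong to a gene list, grey points do not, and the dotted line marks equal effects. Of the 570 points, 558 have the same sign on both axes, and the median of the genes that rose is 1.23 in trained and 0.83 in naive mice. The genes were selected by their calls in trained mice, which favours larger trained values.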

How the data were processed

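The authors deposited whole-number counts per gene symbol and library with no normalization, 50559 genes. The submitters' processing notes name Trimmomatic 0.39 and build mm39. The sources used here name no aligner, counter, annotation or strand setting. Per the labels' protocols, poly(A) libraries were made from 50 ng of RNA. The labels number the samples of a group and describe dissection by mouse, so each library is called a mouse; no label says outright that it is 1 animal, and p-values measure the spread between these samples. Library totals were 92122767 to 128254479 counts; whether a read pair could be counted more than once is not known, so no counting error is derived from them.

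The 10 trained hippocampal libraries entered a 2-group fit in R 4.3.3 with edgeR 4.0.16. filterByExpr (minimum count 10, minimum total 15) kept 24343 genes. TMM factors and the 2-sided quasi-likelihood F test were used with Benjamini-Hochberg adjustment over all genes tested (threshold 0.05). The SE of each log2 fold change was obtained by dividing its size by the root of the F statistic. Intervals of 95% span 1.96 SE on either side, a normal quantile, and are thus narrower than the F test would give. The naive effect and the interaction came from a fit of the 4 hippocampal groups (25791 genes). On simulated counts the trained comparison recovered 77% of changes of 1 and 38% of changes of 0.5 on the log2 scale (23836 genes). The changed genes were drawn at random above a floor on counts, so these shares do not hold for low or highly variable genes. DESeq2 1.42.0, limma-voom (limma 3.58.1), RLE factors, other filters, a replicate block and leaving out each library were alternatives. Replicate numbers do not pair mice in the labels, and correlations of same-numbered mice ran from -0.13 to 0.11 over 4 pairs. No library pair was a duplicate.

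The 42 gene lists (811 genes), the members and the comparison were chosen with earlier results of these data known. Genes were named by rule: 8 fixed genes, the 12 called genes at most in each direction that moved furthest, at a mean of 1 CPM or more, up to 4 called members per list (2 uncalled where none was called) and 6 genes by interaction p. List members beyond these, Prn, Lamr1-ps1, Gm5104 and 2810407A14Rik were named after their values were seen. A test of summed marker shares that had been planned was not run, and these shares are given as values. Chromosome order came from a GRCm38.p6 gene table that matched 48908 symbols. A few genes that the rule named are not reported here.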

Additional observations from a re-analysis of the deposited data

Results flagged for a closer look

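In 248 groups of values examined, of 121 named genes and 3 library features in the APP/Tau and control mice, 16 had a single library far from the others; chance flags about 1 in 20 groups. In APP/Tau mouse 1, Ctse stood at 10.8 CPM (the other 3 reached 1.58 CPM at most), Rwdd2b at 3.50 CPM (others 4.95 to 5.10) and Usp16 at 18.6 CPM (others 13.9 to 14.4). Rwdd2b and Usp16 are neighbours on chromosome 16, and mouse 1 was the lowest of the 4 in the former and the highest in the latter. In APP/Tau mouse 3, Cxcl13 stood at 8.23 CPM (others up to 1.45).

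The remaining 12 were in controls. Control 1 held 1.99% of its counts in 18S ribosomal RNA (others up to 0.286%), 95.1 CPM of Kcna4 (others 55.4 to 65.8), 705 CPM of Prnp (others 871 to 914) and 0.651 CPM of Cst7 (others up to 0.284). Control 3 held 2.06 CPM of Atf3 (others up to 1.09) and 1.45 CPM of Psmb9 (others up to 1.04). Control 4 held 75.6 CPM of Ltn1 (others 67.2 to 68.6) and 4.26% mitochondrial RNA (others 4.61 to 4.80%). Control 5 held 81.7 CPM of Csf1r (others up to 71.7) and 0.388 CPM of Tlr1 (others up to 0.238). Control 6 held 603 CPM of Mapt (others up to 549) and 154 CPM of Rps4x (others up to 134).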

How the results depend on the processing

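The number of genes called in the trained hippocampus (570) was 549 with RLE factors, 573 with a filter at a mean of 1 CPM, 721 with all 4 groups in 1 fit and 739 with no filter. DESeq2 called 1774 (1482 higher, 292 lower; 561 shared with the 570) and limma-voom 27 (20 higher, 7 lower; 26 shared). With a replicate block by title number, which the labels do not tie to litters or days, 5 were called (3 higher, 2 lower), and 1 of 4 APP/Tau mice correlated best with its own number. Leaving out 1 library gave 15 to 2291 calls, of which 60 to 93.7% were higher. Of the 86 named genes that were called, 85 stayed called under DESeq2 (of 85 with a value), 85 with RLE factors, 80 with all 4 groups, 12 with limma-voom, 3 with the block and 12 to 86 with a library left out; no called gene changed direction in these fits. Of the named genes that were not called, 18 were called under DESeq2, 16 without APP/Tau mouse 2, 6 without mouse 4 and 2 each with all 4 groups and with no filter; Apoe, Apod, Opalin, Kcna4 and Cacna2d1 were called in 2 of the 10 fits with a library left out. Among uncalled genes, the sign changed for Ccz1 (main value -0.0076, 0.020 with the block, -0.029 to 0.012 with 1 library left out, above 0 without control 6) and Hbb-bt (0.085 with the block). For the interaction, DESeq2 called 3 genes, all lower, and every other setting called 0. With alternatives chosen after seeing the data, the mitochondrial share differed by -0.60 to -0.37 percentage points when 1 library was left out, and without control 4 its difference of -0.59 had an adjusted p of 0.0476 (exact permutation test; range over the libraries left out 0.0476 to 0.143). The cause of these changes was not tested.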

Other observations

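Of the 570 called genes, 414 are in none of the gene lists. The ones with the smallest p among them, leaving out predicted genes and named after their values were seen, included the following. Siglecf, an inhibitory sialic acid receptor, measured 10.4, 0.920, 8.85 and 4.57 CPM in APP/Tau mice 1 to 4 against a control mean of 0.507 ± 0.160 CPM (SD, n = 6), a log2 fold change of 3.61 ± 0.51. Ptprc, the leukocyte antigen CD45, rose by 2.50 ± 0.35, Mpeg1, a pore-forming protein of macrophages, by 2.52 ± 0.37, Lag3, an inhibitory receptor, by 2.89 ± 0.42, and Slc11a1, a metal transporter of phagosomes, by 2.68 ± 0.41. Irgm1, an interferon-inducible GTPase (1.06 ± 0.15), and Jak3, a cytokine receptor kinase (0.85 ± 0.12), rose less. In APP/Tau mouse 2 the latter pair stood at 10.4 and 5.34 CPM, against control means of 7.33 ± 0.78 and 3.65 ± 0.24 CPM.

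Lamr1-ps1, a pseudogene by its symbol whose reads may be shared with near-identical copies, was listed at 0 in all 6 controls and at 2.62, 2.12, 1.85 and 2.22 CPM in the 4 APP/Tau mice. The genes with the smallest interaction p (Adamts6, Ccz1, Ext1, Lamc1, Ttc27 and Zfp775) had an adjusted p of 0.984.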
